A study of Mus musculus with 4 samples.

Results

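The genes described here mark the projection neurons of the striatum, the forebrain nucleus that selects movements and habits. They were listed by name, and a probe was taken when the transcript accession that the scanner files give for it belongs to a listed gene. Of 9 listed genes, 8 had a probe, with 10 probes in all among 41174 probes on the array, and Rasd2 matched no probe by its accession and was not analysed here. The 8 genes are Pdyn and Tac1 of the direct pathway, Penk, Adora2a and Gpr6 of the indirect pathway, and Rgs9, Pde10a and Foxp1, which neurons of both pathways express.

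Messenger RNA of whole brain was compared with 4 Agilent two-colour arrays. The SAMP8 WME group was senescence-accelerated mouse prone 8 (SAMP8), whose powdered food contained whale meat extract (WME). The SAMP8 LSO group was of the same strain on the low-safflower oil (LSO) control diet, and the SAMR1 LSO group was senescence-accelerated mouse resistant 1 (SAMR1) on that control diet. The labels give AKR/J as the background of both strains, with outcrossing to a line that is not known. All mice were purchased at 6 weeks of age. They ate chow until 24 weeks of age and the powdered study diet for 26 weeks after that. All were tested for behaviour over 8 days at 49 weeks and killed at 50 weeks. On 2 diet arrays the SAMP8 WME and SAMP8 LSO RNAs were hybridised together in both dye orientations, and on 2 strain arrays so were the SAMP8 LSO and SAMR1 LSO RNAs. The labels do not say how many mice stood behind an RNA. The arrays of a pair are taken to carry the same 2 RNAs, and SAMP8 LSO to be the same RNA in both pairs. The design then has 1 RNA per group, and no p-value is given. Each SD after ± is over the 2 dye orientations and holds no spread between mice. It contains the dye bias of a probe, which the mean of both arrays cancels, besides other technical error.

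The striatum sends its output through spiny projection neurons of a direct pathway, which express the dopamine receptor Drd1 with the peptides dynorphin and substance P, and an indirect pathway, which express the dopamine receptor Drd2 with enkephalin. Dopamine raises cyclic AMP signalling in direct pathway neurons through Drd1 and lowers it in the indirect kind through Drd2. Loss of peptide and phosphodiesterase messages from these neurons is a known feature of Huntington disease models, and dopamine depletion is known to move enkephalin and substance P messages in opposite directions in rodents. In whole brain RNA these genes are also transcribed elsewhere: Penk in olfactory bulb and hypothalamus, Pdyn in hippocampus and hypothalamus, Tac1 in habenula and brainstem, and Foxp1 in cortex. In such bulk RNA, fewer cells of a type and less RNA per cell cannot be told apart.

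All 10 probes were well above background in both channels of all 4 arrays (80 of 80 readings), 0 readings were saturated and 0 were marked as outliers. Their raw median signals ran from 243 to 121662, against local backgrounds of 60 to 95.5. Over all probes, 81.4% to 85.6% were well above background in a channel. Levels below are log2 intensities after background correction and loess normalization, scaled between arrays. They are compared between RNAs within a probe only, since different probes have different brightness.

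In the direct pathway both peptide precursors had small positive ratios in the 2 comparisons, except that the strain ratio of Pdyn turned to −0.044 under median centring without loess. Pdyn encodes prodynorphin, the precursor of dynorphins, which act on the kappa opioid receptor. Its level was 13.29 and 13.22 in SAMP8 WME, against 13.10, 13.20, 13.15 and 13.13 in SAMP8 LSO and 13.08 and 13.13 in SAMR1 LSO. The SAMP8 WME readings lay above all SAMP8 LSO readings, while those of SAMP8 LSO and SAMR1 LSO overlapped. The log2 ratio of SAMP8 WME over SAMP8 LSO was 0.11 ± 0.12 (SD, 2 arrays), with 0.19 and 0.024 on the arrays, and that of SAMP8 LSO over SAMR1 LSO was 0.037 ± 0.049. Tac1 encodes the precursor of substance P and neurokinin A. Its level was 11.71 and 11.79 in SAMP8 WME, against 11.66, 11.67, 11.63 and 11.73 in SAMP8 LSO and 11.56 and 11.52 in SAMR1 LSO. The SAMP8 WME and SAMP8 LSO readings overlapped, and both SAMR1 LSO readings lay below every SAMP8 reading. Its diet log2 ratio was 0.086 ± 0.047 and its strain log2 ratio was 0.14 ± 0.10.

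In the indirect pathway, Penk showed readings that followed the dye more than the RNA. Penk encodes proenkephalin, the precursor of the enkephalins, and has 2 probes here. On the brighter probe its level was 16.51 and 16.08 in SAMP8 WME, against 16.26, 16.43, 16.48 and 16.26 in SAMP8 LSO and 16.08 and 16.39 in SAMR1 LSO. All 3 groups overlapped on that probe. Its diet log2 ratio was 0.26 with SAMP8 WME in Cy5 and −0.35 with SAMP8 WME in Cy3, with a mean of −0.046 ± 0.43. Its strain log2 ratio was 0.40 and −0.13 on the 2 arrays in the same order, with a mean of 0.13 ± 0.37.

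The dimmer Penk probe had the same sign on both strain arrays. Its level was 13.08 and 13.31 in SAMP8 WME, against 13.28, 13.15, 13.12 and 13.32 in SAMP8 LSO and 13.02 and 13.04 in SAMR1 LSO. The SAMP8 WME and SAMP8 LSO readings overlapped, and both SAMR1 LSO readings lay below every SAMP8 reading. Its strain log2 ratio was 0.19 ± 0.13, positive on both arrays, and its diet log2 ratio was −0.024 ± 0.25, with opposite signs on the 2 arrays. The mean ratios of the 2 Penk probes had the same sign in each comparison. For diet both probes, and for strain the brighter one, had opposite signs on their 2 arrays. The diet mean of the brighter probe turned to 0.21 under median centring without loess.

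Adora2a and Gpr6 differed little. Adora2a encodes an adenosine receptor that raises cyclic AMP in neurons of the indirect pathway and is a target of caffeine. Its level was 12.49 and 12.25 in SAMP8 WME, against 12.49, 12.23, 11.98 and 12.18 in SAMP8 LSO and 11.97 and 12.14 in SAMR1 LSO. Those levels varied between arrays more than within them, and the ratios within an array were 0.014 ± 0.022 for diet and 0.027 ± 0.020 for strain. Gpr6 encodes an orphan receptor with constitutive activity on cyclic AMP. Its level was 8.17 and 8.19 in SAMP8 WME, against 8.11, 8.19, 8.24 and 8.31 in SAMP8 LSO and 8.15 and 8.21 in SAMR1 LSO, and the groups overlapped. Its diet log2 ratio was 0.029 ± 0.043 and its strain log2 ratio was 0.095 ± 0.010, with 0.088 and 0.10 on the 2 arrays.

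Of the genes that neurons of both pathways express, Rgs9 encodes a regulator that shortens G protein signalling below dopamine and opioid receptors. Its level was 11.70 and 11.82 in SAMP8 WME, against 11.85, 11.79, 11.80 and 11.88 in SAMP8 LSO and 11.79 and 11.82 in SAMR1 LSO. The groups overlapped, and the log2 ratios were −0.056 ± 0.13 for diet and 0.027 ± 0.033 for strain. Pde10a encodes the phosphodiesterase that breaks down cyclic AMP and cyclic GMP in spiny neurons. On its brighter probe the level was 13.07 and 13.20 in SAMP8 WME, against 13.02, 12.97, 13.01 and 13.09 in SAMP8 LSO and 13.08 and 12.96 in SAMR1 LSO, with overlap between all groups. Its diet log2 ratio of 0.14 ± 0.12 was the highest of the 8 genes on their brightest probes. The dimmer Pde10a probe had levels of 9.28 and 9.05 in SAMP8 WME, against 8.97, 9.08, 9.01 and 8.76 in SAMP8 LSO and 8.99 and 8.94 in SAMR1 LSO. It gave 0.14 ± 0.24 for diet, with 0.31 and −0.030 on the 2 arrays. The strain ratios of its 2 probes differed in sign, 0.034 ± 0.15 on the brighter and −0.079 ± 0.14 on the dimmer, so no strain direction is given for Pde10a.

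Foxp1 encodes a forkhead transcription factor of spiny neurons and cortical neurons. Its level was 12.11 and 12.15 in SAMP8 WME, against 12.06, 11.97, 12.04 and 12.06 in SAMP8 LSO and 12.08 and 12.16 in SAMR1 LSO. All SAMP8 LSO readings lay below those of the other groups. Its diet log2 ratio was 0.11 ± 0.095 and its strain log2 ratio was −0.065 ± 0.048, the lowest strain ratio of the 8 genes on their brightest probes.

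**Figure D1:**
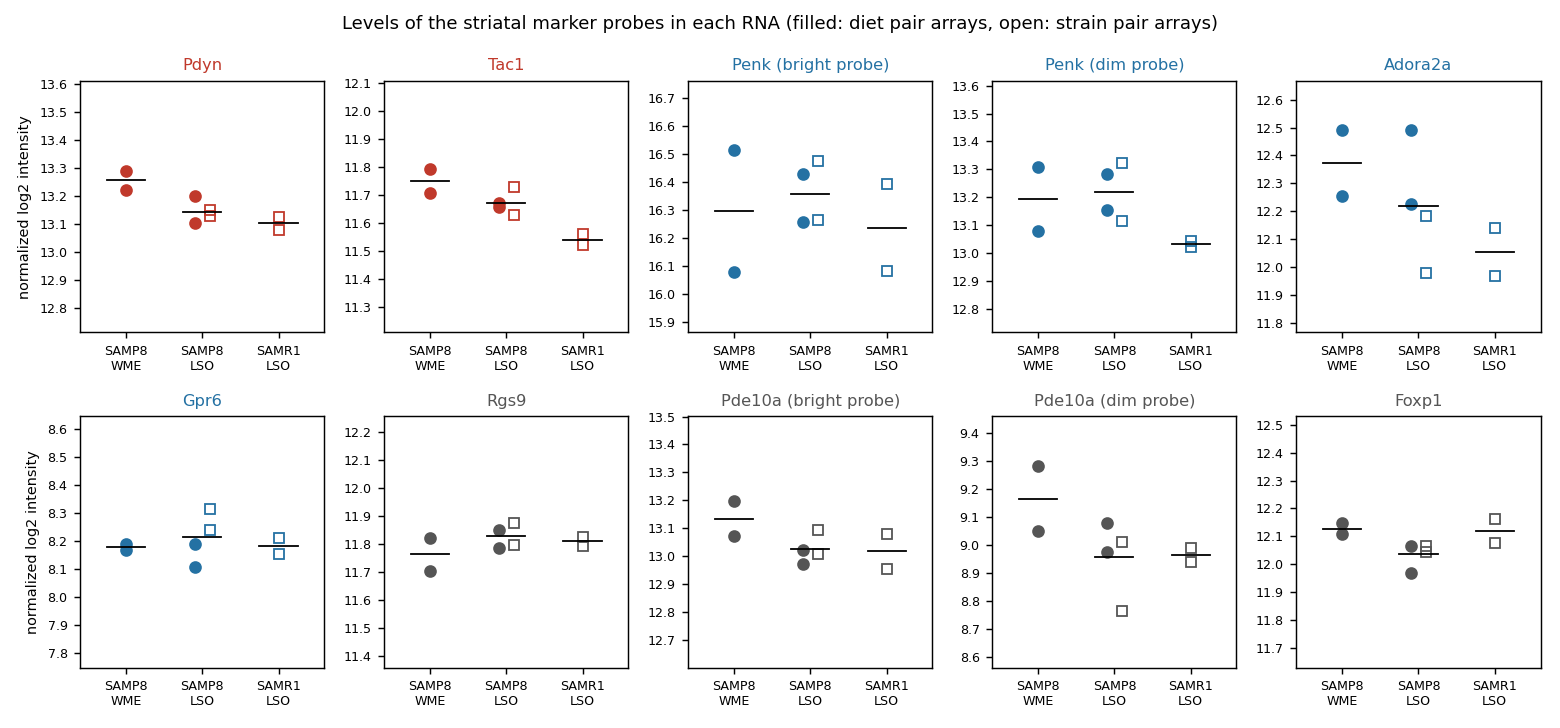
Normalized log2 intensity of each striatal marker probe (y axis) in SAMP8 WME, SAMP8 LSO and SAMR1 LSO RNA (x axis). Each point is an array channel, filled for the diet pair and open for the strain pair, and bars are means. Colours mark direct pathway (red), indirect pathway (blue) and both pathways (grey). For Tac1 and the dimmer Penk probe both SAMR1 LSO points lie below every SAMP8 point, and for the brighter Penk probe the groups overlap.

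With these readings, the order of the mean levels was SAMP8 WME, SAMP8 LSO, SAMR1 LSO from high to low for Pdyn, Tac1, Adora2a and Pde10a on the brightest probe. Penk had the order SAMP8 LSO, SAMP8 WME, SAMR1 LSO on both probes, Gpr6 and Rgs9 had SAMP8 LSO, SAMR1 LSO, SAMP8 WME, and Foxp1 had SAMP8 WME, SAMR1 LSO, SAMP8 LSO. Levels from different arrays also carry differences between the arrays, and for Gpr6 the ratios within arrays gave another order, with SAMP8 WME highest and SAMR1 LSO lowest. Neighbours in the first of these orders did not overlap for SAMP8 WME and SAMP8 LSO in Pdyn and for SAMP8 LSO and SAMR1 LSO in Tac1. Over the 8 genes, SAMP8 WME lay wholly above SAMP8 LSO in 2 (Pdyn and Foxp1), against 6.89% of 26398 genes, and wholly below in 0, against 5.8%. SAMP8 LSO lay wholly above SAMR1 LSO in 1 (Tac1), against 12%, and wholly below in 1 (Foxp1), against 11.7%. SAMP8 WME lay wholly above SAMR1 LSO in 3 (Pdyn, Tac1 and Adora2a), against 20%, and wholly below in 0, against 19.7%. SAMP8 WME and SAMR1 LSO shared no array, and for Adora2a the sum of the ratios within arrays was 0.041, under its technical SD of 0.053.

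The diet pair addressed what feeding whale meat extract did to expression in SAMP8 brain. Among the striatal genes, 0 of 8 were 1.5-fold higher on both arrays and 0 of 8 were 1.5-fold lower. Over all 26669 measured genes and unnamed transcripts, that rule called 0.0562% higher and 0.03% lower. The ratios ran from −0.056 (Rgs9) to 0.14 (Pde10a), and 81.2% of all genes lay within that range. Their median was 0.057, against 0.0038 over all genes. Under median centring without loess it was 0.23, against 0.066 over all genes, and the ratios of Rgs9 and Penk turned to 0.12 and 0.21. In that setting the median of all genes varied with brightness. Among 20 bins of intensity, it was 0.18 in that of Rgs9 and 0.22 in that of the brighter Penk probe. Without replicate 1 the median of the members was 0.032. Of the 8 genes, 4 were above 0 on both arrays (Pdyn, Tac1, Pde10a and Foxp1), against 20.5% of all genes, and 0 were below 0 on both, against 17.6%.

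A technical SD was estimated for a ratio from the part of the array readings that cancels both the RNA difference and the dye bias of a probe, and it was 0.037 to 0.053 for the member probes. The same 4 genes had diet ratios of more than 2 technical SD above 0, against 6.83% of all genes, and 0 lay that far below 0, against 6.9%. Of all genes, 2.04% had a diet ratio at least as high as that of Pde10a. These shares cover hybridisation error only, and how much the ratio would vary between mice was not measured.

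The strain pair set SAMP8 LSO brain beside SAMR1 LSO brain. Again 0 of 8 genes were 1.5-fold higher and 0 were 1.5-fold lower on both arrays, against 0.969% and 0.494% of 26946 genes. The ratios ran from −0.065 (Foxp1) to 0.14 (Tac1), and 65.3% of all genes lay within that range. Their median was 0.035, against −0.0067 over all genes, and it turned to −0.038 under median centring without loess, where that of all genes was −0.026. The median size of a ratio, sign aside, was 0.051 for the members and 0.061 for all genes. In 5 of 8 genes the ratio was above 0 on both arrays (Pdyn, Tac1, Adora2a, Gpr6 and Rgs9), against 23.9% of all genes. Under median centring without loess 3 of these turned below 0, Pdyn to −0.044, Adora2a to −0.041 and Rgs9 to −0.035. In that setting the median of all genes varied with brightness. Among 20 bins of intensity, it was −0.091 in that of Pdyn and −0.074 in that of Adora2a and Rgs9. Foxp1 was the member below 0 on both arrays (1 of 8), against 26.7%. Tac1 and Penk exceeded 2 technical SD above 0 (2 of 8), against 14.7% of all genes, and 0 of 8 lay that far below 0, against 16.5%. Penk had opposite signs on the 2 arrays, 0.40 and −0.13. Under median centring without loess the ratios of Tac1 and Penk were 0.080 and 0.0062. In their intensity bins the median of all genes was then −0.067 and −0.11. A ratio as high as that of Tac1 was found in 9.46% of all genes.

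**Figure D2:**
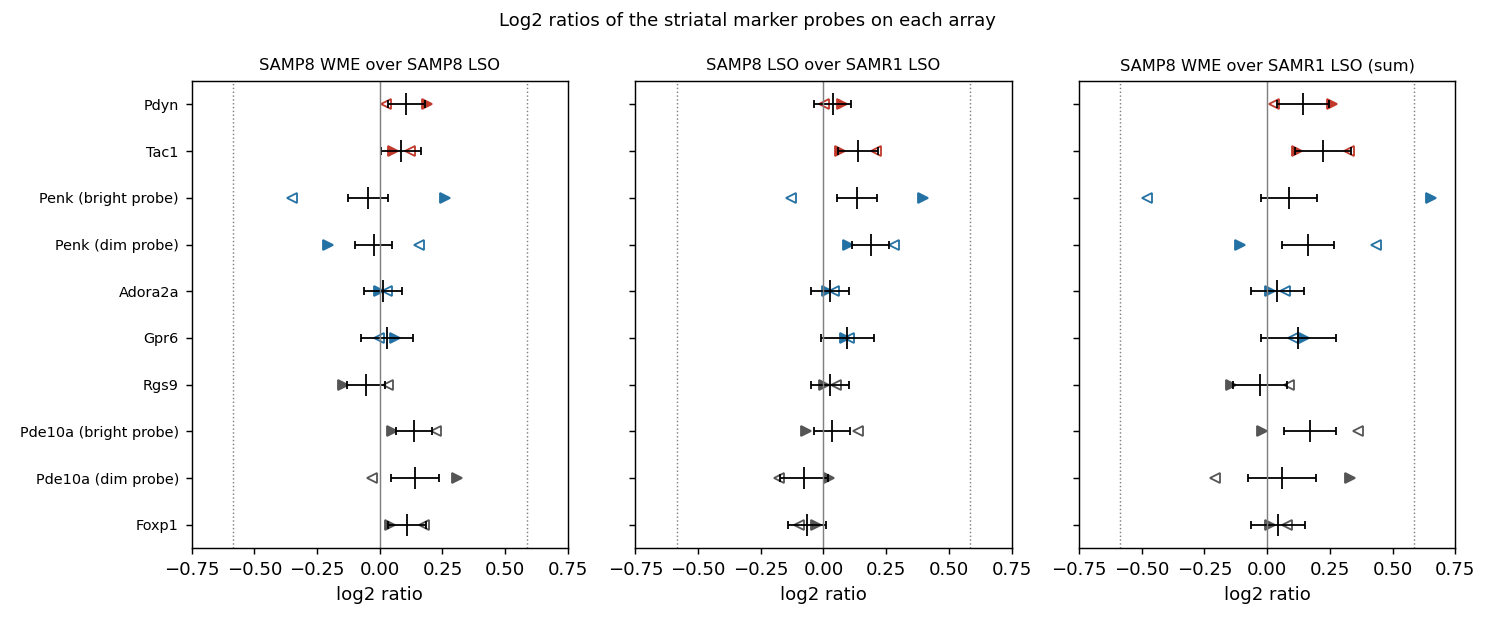
Log2 ratio (x axis) of each striatal marker probe (rows) for diet, strain and their sum. Filled triangles are arrays with the first-named RNA in Cy5, open triangles those with it in Cy3, and black bars are the mean with 2 technical SD to each side. Dotted lines mark 1.5-fold. In the diet and strain panels all triangles lie inside those lines, and those of the brighter Penk probe stand on opposite sides of 0.

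The sum of the diet and strain log2 ratios sets SAMP8 WME against SAMR1 LSO through the SAMP8 LSO RNA, taken as the same in both pairs. Of 8 genes, 0 were 1.5-fold higher and 0 were 1.5-fold lower in both dye orientations, against 0.811% and 0.398% of 26398 genes. Tac1 had the highest sum, 0.22 ± 0.15 or 1.17-fold, with 0.12 and 0.33 in the 2 orientations. Pde10a followed at 0.17 ± 0.27, Pdyn at 0.14 ± 0.16 and Gpr6 at 0.12 ± 0.032. Rgs9 had the lowest sum, −0.029 ± 0.16, which turned to 0.081 under median centring without loess. The sums were above 0 in both orientations for 5 of 8 genes (Pdyn, Tac1, Adora2a, Gpr6 and Foxp1), against 19% of all genes, and below 0 in both for 0, against 18%. Pdyn, Tac1 and Pde10a exceeded 2 technical SD above 0 (3 of 8), against 10.7%, and 0 lay that far below 0, against 10%. The median sum was 0.11 for the members and −0.0019 for all genes.

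**Figure D3:**
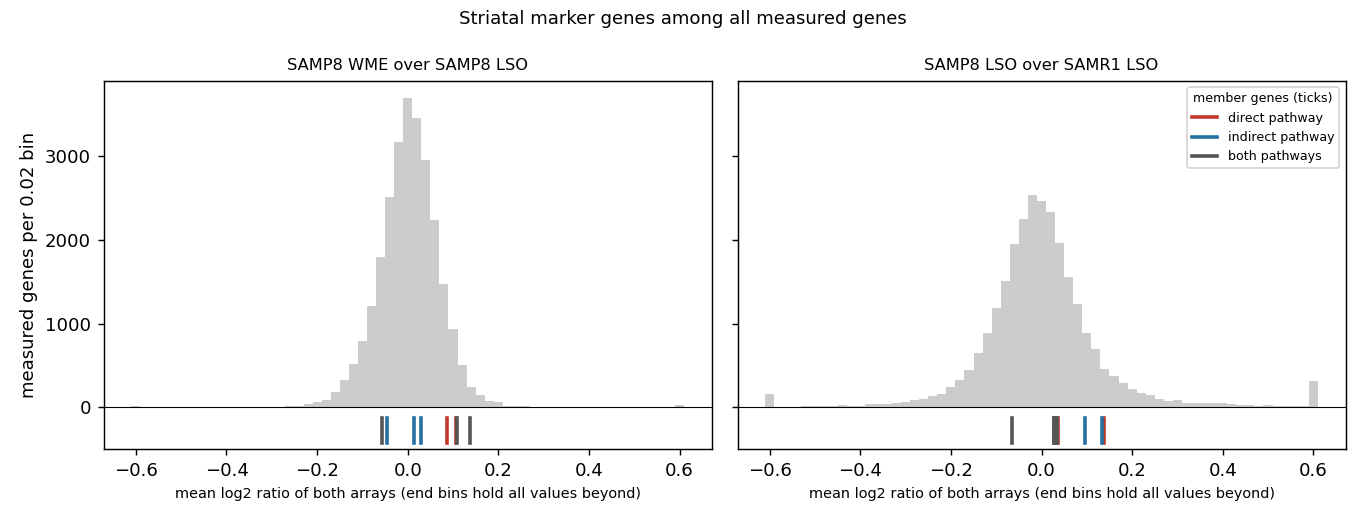
Number of measured genes (y axis) in bins of the mean log2 ratio (x axis, bins 0.02 wide) for diet and strain, with the 8 striatal marker genes as ticks under the axis. The members lie between −0.056 and 0.14 for diet and between −0.065 and 0.14 for strain, a range that holds 81.2% and 65.3% of all genes. The end bins hold all values beyond them.

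Genes of the direct and indirect pathways were then set against each other. In the diet comparison the direct pathway genes Pdyn and Tac1 had a mean log2 ratio of 0.096 ± 0.034, and the indirect pathway genes Penk, Adora2a and Gpr6 had a mean of −0.0010 ± 0.15. The difference of direct minus indirect was 0.097 ± 0.12 (SD, 2 arrays), with 0.014 where SAMP8 WME was in Cy5 and 0.18 where it was in Cy3. It was smaller than its spread over the 2 arrays and larger than 2 of its technical SDs of 0.037. That spread also contains the dye bias of the probes, which the mean cancels. In the strain comparison the means were 0.087 ± 0.026 for direct and 0.085 ± 0.11 for indirect genes. Their difference was 0.0021 ± 0.14, with −0.096 and 0.10 on the 2 arrays. For the sum the difference was 0.099 ± 0.26. Penk was the indirect gene with readings furthest from 0 on single arrays. With the dimmer Penk probe, chosen after the values were seen, the difference was 0.089 for diet and −0.016 for strain.

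The other genes of each pathway gave the same comparison in different probes. Of 7 other direct pathway genes, 0 were called in either comparison, and their median log2 ratio was 0.020 for diet and 0.011 for strain, against 0.12 and −0.010 under median centring without loess and 0.043 and −0.0042 with processed signals. Of 8 other indirect pathway genes, 5 were measured and 0 were called, with medians of −0.022 for diet and 0.029 for strain, which turned to 0.10 and −0.013 under median centring without loess, and for diet to 0.011 with processed signals. Drd1, the dopamine receptor of the direct pathway, had 0.15 ± 0.035 for diet, the highest ratio of its list, and 0.085 ± 0.028 for strain, all 4 readings being positive. Ebf1, a transcription factor of direct pathway neurons, stood at −0.13 ± 0.24 for diet, with opposite signs on the arrays. Drd2, the dopamine receptor of the indirect pathway, had 0.079 ± 0.035 for strain on its brighter probe and 0.050 ± 0.079 on the other. For diet its probes differed in sign, −0.033 ± 0.12 on the brighter and 0.089 ± 0.041 on the other. Plxdc1, on the indirect list, stood at −0.076 ± 0.0097 for diet and Slc35d3, a gene of direct pathway neurons, at −0.080 ± 0.098 for strain.

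A dye term, the part of a log2 ratio that followed the dye and not the RNA, was as large as the ratios themselves for several members. In the diet pair it exceeded the ratio in 4 of 8 genes, against 61.8% of all genes, and in the strain pair in 2 of 8, against 49.4%. These are exactly the genes whose 2 arrays differed in sign, so the counts restate those signs. For the brighter Penk probe it was 0.30 in the diet pair and 0.26 in the strain pair, and for the dimmer Penk probe −0.18 and −0.092. For Pde10a it was −0.088 and −0.10 on the brighter probe and 0.17 and 0.099 on the dimmer. Penk and Pde10a thus each had probes with dye terms of opposite sign, while the sign of each of those probes was the same in both pairs. Adora2a had dye terms of −0.015 and −0.014, the smallest in the strain pair after Gpr6 (−0.0073).

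**Figure D4:**
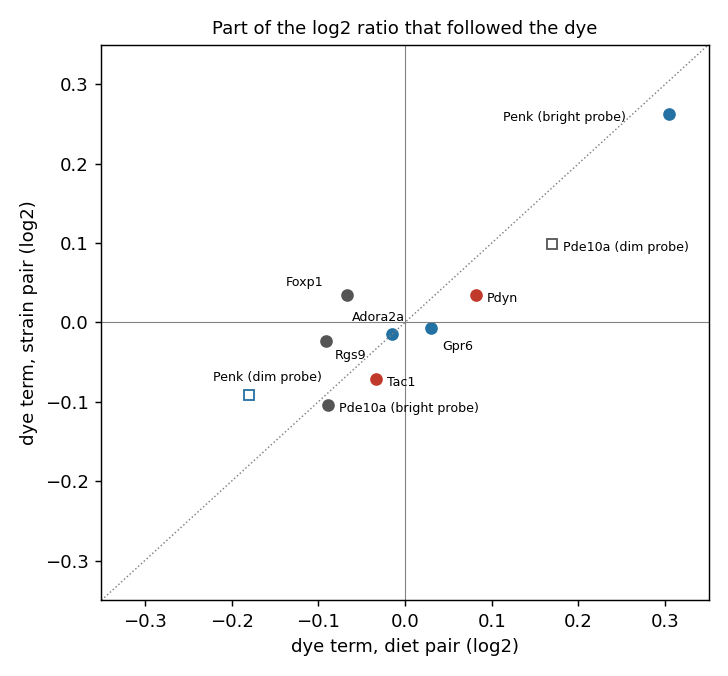
Dye term of each striatal marker probe in the diet pair (x axis) and the strain pair (y axis), in log2 units. Circles are the brightest probe of a gene and open squares the dimmer probes of Penk and Pde10a, coloured by pathway, and the dotted line marks equal terms. The brighter Penk probe stands at 0.30 and 0.26, and the 2 probes of Penk lie on opposite sides of 0.

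Other genes of striatal projection neurons were measured beside the members. Of 18 listed, 15 were measured and 0 were called in either comparison. Their median log2 ratio was 0.051 for diet and 0.083 for strain (0.20 and 0.034 under median centring without loess). In the diet pair 4 of 15 were above 0 on both arrays, against 20.5% of all genes, and 0 below, against 17.6%. In the strain pair 8 of 15 were above, against 23.9%, and 4 below, against 26.7%. The highest strain ratio of that list was that of Actn2, an actin-binding protein of dendritic spines, at 0.32 ± 0.17 or 1.25-fold. The lowest was that of Meis2, at −0.18 ± 0.15, with −0.21 ± 0.14 on its other probe. Gng7, a G protein subunit that couples Drd1 and Adora2a to adenylyl cyclase, stood at 0.27 ± 0.072 for strain on its brighter probe and at 0.025 ± 0.0052 on the other. For diet, Bcl11b, a transcription factor of spiny neurons, stood at 0.14 ± 0.18 and Gng7 at −0.10 ± 0.31, with 0.054 ± 0.10 on its other probe.

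Receptors and processing enzymes of the peptides were also listed. Of 7 opioid and tachykinin receptors 6 were measured and 0 were called. Oprl1, the receptor of the opioid-related peptide nociceptin, had a strain log2 ratio of −0.55 ± 0.084, or 0.682-fold, with −0.61 and −0.49 on the arrays, but its other probe stood at −0.015 ± 0.13. Tacr1, the receptor of substance P, had −0.38 ± 0.040, or 0.771-fold, and −0.028 ± 0.17 on its other probe. The strain difference of both receptors therefore rested on 1 of their 2 probes. Oprk1, the receptor of dynorphin, had a diet ratio of 0.11 ± 0.046, and Tacr2 stood at −0.10 ± 0.26. Of 8 processing genes 0 were called. Pcsk1, a convertase that cuts peptide precursors, had a strain ratio of 0.20 ± 0.049 and 0.14 ± 0.072 on its other probe, and Pam, which amidates peptides, had 0.16 ± 0.077 with −0.070 ± 0.037 on its other probe. For diet the largest were Pcsk1n, an inhibitor of that convertase, at 0.14 ± 0.43 and the convertase Pcsk2 at 0.14 ± 0.22, with 0.0087 ± 0.018 and 0.063 ± 0.10 on their other probes.

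Among 4 related peptide precursors, 1 was called. Pomc, the precursor of beta-endorphin and corticotropin, was 3.39-fold higher in SAMP8 WME than in SAMP8 LSO (log2 ratio 1.76 ± 0.15). The opioid precursors of the striatum, Penk and Pdyn, stood at −0.046 and 0.11 in the same comparison. In the strain comparison Pomc stood at −0.13 ± 0.0030 and Tac2, the precursor of neurokinin B, at −0.12 ± 0.11. Of 7 genes for relatives and partners of Rgs9, 6 were measured and 0 were called, with medians of 0.063 for diet and −0.072 for strain (0.20 and −0.12 under median centring without loess). Rgs4, another regulator of G protein signalling, had a strain ratio of 0.17 ± 0.13 (0.13 ± 0.14 on its other probe) and Rgs6 one of −0.14 ± 0.026. For diet Gnb5, the G protein subunit that binds Rgs9, stood at 0.079 ± 0.23 and Rgs4 at −0.090 ± 0.23. Of 5 markers of cholinergic interneurons, another neuron type of the striatum, Slc5a7 was called higher in the strain comparison (1.04 ± 0.12, 2.06-fold). For diet 0 were called, with Chat at 0.033 ± 0.0038 (−0.032 on its other probe) and Ache at 0.014 ± 0.21. The strain median of the 5 markers was 0.053.

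Markers of other regions and cells were listed from the same RNAs. Of all genes, 20.5% were above 0 and 17.6% below 0 on both diet arrays, and 23.9% and 26.7% on both strain arrays. In the diet comparison 7 of 7 cerebellar markers were below 0 on both arrays, with a median of −0.25 (−0.064 under median centring without loess), Cbln1 at −0.29 ± 0.081 and En2 at −0.27 ± 0.13. The cortical glutamatergic markers had a diet median of 0.11 (0.25 under that centring), with 6 of 8 above 0 on both arrays, led by Tbr1 (0.19 ± 0.055) and Neurod6 (0.16 ± 0.19). Olfactory bulb markers, whose region also expresses Penk and Tac1, had a diet median of 0.11 (0.23 under that centring) and a strain median of −0.27. On both arrays 3 of 5 were above 0 and 1 below for diet, and 0 above and 4 below for strain. Doc2g (−0.40 ± 0.22) and Cdhr1 (−0.35 ± 0.20) were lowest for strain. Eomes went the other way, at −0.12 ± 0.0055 for diet and 0.048 ± 0.095 for strain. In the strain comparison the cortical median was −0.13, with 6 of 8 below 0 on both arrays, and the cerebellar median was 0.11 (0.025 under that centring). The striatal members had medians of 0.057 and 0.035. Of 6 hippocampal markers 3 were measured, with a strain median of −0.0046 (0.011 under that centring). Spink8 was called higher for strain (1.17 ± 0.15), while Prox1 stood at −0.0046 and C1ql2 at −0.060. Among 5 markers of midbrain dopamine neurons, which innervate the striatum, 0 were called in either comparison. The part of these regional differences in the values of the members was not tested.

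Immediate early genes, which neuronal activity induces, were below 0 on both arrays in 10 of 10 for diet (median −0.49, Fos at −0.91 ± 0.19 and Egr2 at −0.65 ± 0.040 called lower). For strain 10 of 10 were above 0 on both arrays (median 0.57), and Fos, Egr2, Arc and Nr4a1 were called higher, at 1.11 ± 0.17, 1.15 ± 0.055, 0.66 ± 0.043 and 1.00 ± 0.11. Over the 8 striatal members on their brightest probes the ratios furthest from 0 were 0.14 in both comparisons. For strain the dimmer Penk probe stood at 0.19, and the other striatal projection neuron genes ran from −0.18 to 0.32. Blood markers were lower for diet, with 4 of 4 below 0 on both arrays (median −0.49), and higher for strain, with 4 of 4 above 0 (median 0.78), S100a8 and S100a9 being called both times. Of all genes, 17.6% were below 0 on both diet arrays and 23.9% above 0 on both strain arrays. Both comparisons contain SAMP8 LSO RNA, taken as the same, below the line in the diet ratio and above it in the strain ratio.

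**Figure D5:**
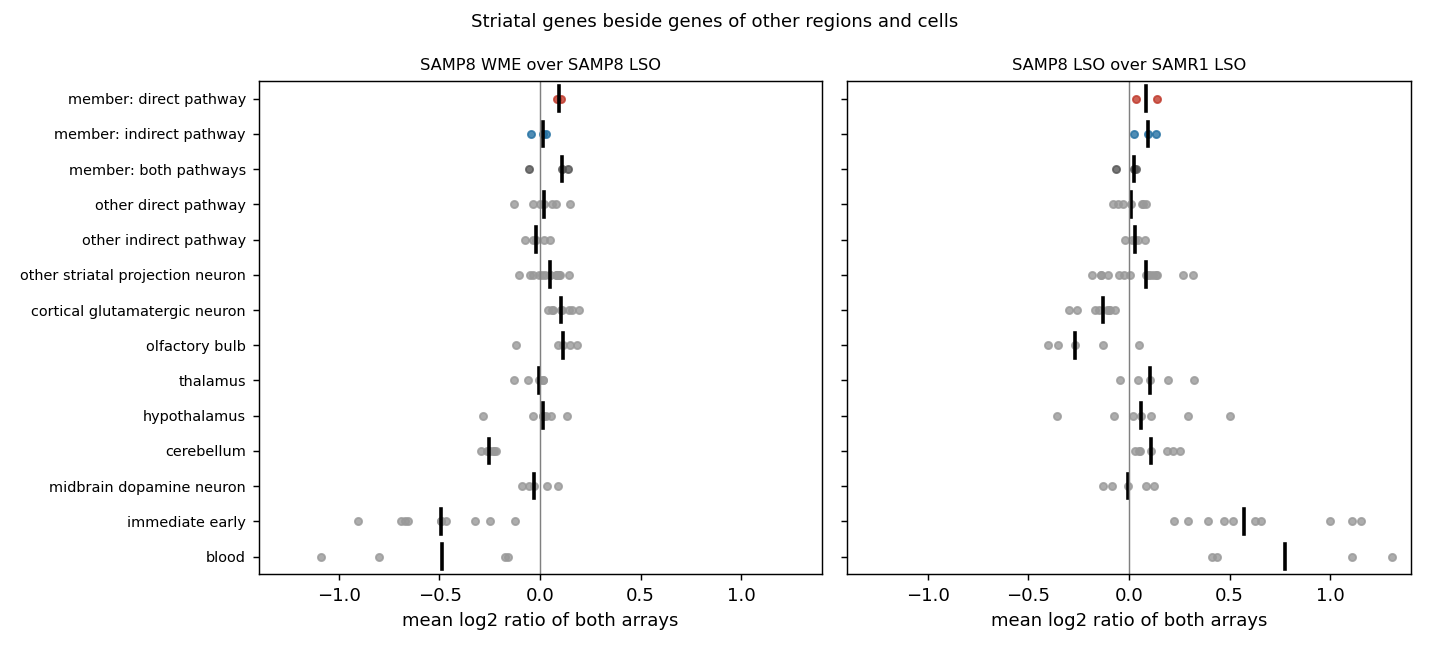
Mean log2 ratio (x axis) of each measured gene (points) in the striatal lists and in lists of other regions and cells (rows), with the list median as a black bar, for diet and strain. The striatal row medians lie within 0.11 of 0, as do those of the thalamus, hypothalamus and midbrain dopamine neuron rows. The cerebellar median stands at −0.25 for diet and the immediate early median at −0.49 for diet and 0.57 for strain.

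The genes with readings most like those of Tac1, the member with the highest strain ratio on its brightest probe, were ranked by Euclidean distance over the 4 array log2 ratios among 14606 named genes. Among the nearest were Heatr1 (distance 0.048), Slc25a51 (0.056), Lpar2 (0.058) and Cacybp (0.060). As many as 66 genes lay within a distance of 0.1 of Tac1, so the ranking separates these genes little.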

How the data were processed

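Total RNA of whole brain was labelled with Cy3 and Cy5 per the labels' protocols, and all 4 arrays lay on 1 slide. Spot intensities in the deposited files are the output of Agilent Feature Extraction 11.0.1.1 (submitters' processing notes and file headers). Median intensities are raw, while the processed intensities had background subtracted and dyes normalized by that program, per the file headers. The log10 ratio in those files is red over green, per the file headers, and was only checked. The deposited series table holds log2 ratios, which matched the red over green processed signals on that scale (largest difference 5e-09), not turned for dye; column medians were −0.018, 0.012, 0.0036 and 0.017. Flags are used as deposited.

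Median signals were corrected with normexp (offset 50) and loess-normalized within arrays. Control spots had weight 0, outlier spots were left out, and limma 3.58.1 under R 4.3.3 was used. The offset pulls ratios of dim probes towards 0. Spots of a probe were averaged, ratios turned for dye, and levels scaled between arrays by Aquantile. Probes were named through RefSeq accessions (GRCm38.p6 gene table, 23384 of 41174 probes), and the brightest probe stood for a gene unless stated. A gene was measured when at least 1 RNA of the pair was well above background on both arrays, and called at 1.5-fold in the same direction on both. Technical SDs came from how far a probe's dye terms in the 2 pairs differed, in 20 bins of intensity. The steps were tested on simulated data.

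Members and lists were chosen with earlier results of these data known. Named beside the members were called genes of each list described, or otherwise its 2 largest ratios per comparison, and the 5 genes nearest to Tac1, of which 1 is not reported here; second probes and values of Drd2 and Penk beyond this were picked after values were seen. The alternatives are given in the closing section. The SAMP8 LSO RNA is taken as the same in both pairs.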

Additional observations from a re-analysis of the deposited data

How the results depend on the processing

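No striatal gene was called under any alternative that used both arrays, so the counts stayed at 0. Without replicate 1 or without replicate 2 the count was 0 for diet and strain and 0 to 1 for the sum, where the brighter Penk probe passed on its Cy5 orientation alone. Medians of the members on single arrays were 0.032 to 0.050 for diet, 0.039 to 0.046 for strain and 0.065 to 0.081 for the sum, and direct minus indirect was 0.014 to 0.18, −0.096 to 0.10 and −0.082 to 0.28. Median centring without loess gave medians of 0.23 for diet, −0.038 for strain and 0.19 for the sum. In that setting the median of all genes was 0.066, −0.026 and 0.045, and it varied with brightness, reaching 0.20 for diet and −0.091 for strain in the intensity bin that holds Pdyn. Processed signals and the series table both gave 0.045 for strain and 0.13 for the sum. The median over the probes of a gene gave 0.12 for the sum, and the dimmer Penk probe, added after the values were seen, 0.13. Why processed signals differ was not tested. Over the alternatives with both arrays the ratio of a member furthest from 0 was 0.33 for diet (Pde10a), 0.19 for strain (Penk) and 0.34 for the sum (Tac1). No paired analysis was possible because the array numbers come from the order of deposit and each comparison is taken as 1 RNA pair. With the design taken as 1 RNA per group, spread between mice could not be measured, and the 2 dye orientations limit the precision of every value.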

Other observations

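Of 7 peptide genes of the hypothalamus, outside the striatal lists, the strain median was 0.059. Furthest from 0 were Hcrt and Avp. Hcrt, the precursor of the orexins, stood at 0.50 ± 0.12 (1.41-fold) and Avp, the precursor of vasopressin, at −0.36 ± 0.031 (0.781-fold). Of that list 0 genes were called. Among interneuron peptides, Vip stood at 0.20 ± 0.18 and Npy at 0.15 ± 0.016 for diet, with 0 of 7 called. Over these 7 interneuron markers the diet ratios ran from −0.15 to 0.20. Their median was 0.051, against 0.29 under median centring without loess and 0.13 with processed signals. On both diet arrays 3 of the 7 were above 0, against 20.5% of all genes, and 1 was below, against 17.6%. The choroid plexus markers were below 0 on both arrays in 5 of 5 for strain (median −0.17), against 26.7% of all genes.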
